A study of Mus musculus with 219 samples.

Results

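The genes described here are 10 members of the Bcl2 family of apoptosis regulators: Bcl2l10, Mcl1, Bcl2, Bcl2l1, Bax, Bak1, Bok, Bcl2l11, Bid and Bad. They were chosen by symbol, by a rule that holds no measured value, though with earlier results of these data known, and all 10 were found among the 32285 genes of both count tables. Mouse oocytes were fertilised by intracytoplasmic sperm injection (ICSI), in which a sperm head was placed opposite the meiotic spindle (contralateral), next to it (ipsilateral) or midway between both (equatorial). Single sister blastomeres of 2-cell embryos, single twin blastocysts grown from separated sisters, and single intact blastocysts grown from undivided 2-cell embryos were sequenced. The design asks whether transcript levels differ with the ICSI site, between the sisters of an embryo and between twin and intact blastocysts. All groups came from the same cross, B6C3F1 oocytes with CD1 sperm. All embryos were made by ICSI and cultured in KSOM medium with amino acids, so no naturally fertilised embryo stands beside them. The embryo was the replicate, with the counts of both sisters or both twins added.

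The mitochondrial pathway of apoptosis is set by the balance between proteins of this family. Antiapoptotic members (Bcl2l10, Mcl1, Bcl2 and Bcl2l1) hold back the effectors Bax, Bak1 and Bok, which permeabilise the outer mitochondrial membrane, while BH3-only proteins such as Bcl2l11 (Bim), Bid and Bad bind and neutralise the antiapoptotic members or act on the effectors. Mouse oocytes carry abundant maternal Bcl2l10 transcript, and the early embryo lives on maternal transcripts until its own genome is active. In the blastocyst, cell death normally trims the inner cell mass.

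The comparisons rest on 55 two-cell embryos, namely 21 after contralateral, 13 after equatorial and 21 after ipsilateral ICSI, on 19 pairs of twin blastocysts (6, 6 and 7) and on 31 intact blastocysts (11, 12 and 8). Total counts per library ranged from 360474 to 2100561 in the 110 blastomeres, from 713410 to 2161062 in the 38 twins and from 234099 to 1254428 in the intact blastocysts. Libraries came from 2 plates. Of the 2-cell embryos, 18 contralateral, 11 equatorial and 13 ipsilateral ones were of plate 1, the rest and all blastocysts were of plate 2. The stages matched their labels: 6 oocyte markers summed to between 3068 and 4764 CPM in 2-cell embryos and to at most 403 CPM in intact blastocysts, whereas 9 trophectoderm markers summed to at most 432 CPM in the former and to at least 4346 CPM in the latter. CPM are counts scaled to 1000000 counts per embryo, and TPM are the same values scaled by exonic length, so that levels can be compared between genes. The labels do not say which embryos shared an ICSI day or culture drop, so p-values measure the spread between these embryos only.

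In 2-cell embryos the summed level of the 10 members was almost entirely Bcl2l10. Another 15 genes of the BCL2 family, read as a separate list, do not enter this sum. This gene lies at chr9:75347758-75351632 (GRCm38). Its level was 3479 ± 449 TPM (SD, n = 55 embryos), which made up 91.6% of the summed mean TPM of the 10 members. The next highest were Mcl1 (chr3:95658788-95663176), a short-lived survival protein, with 121.6 ± 41.4 TPM and 3.20% of the sum, and Bcl2l1 (chr2:152780668-152831728), which encodes Bcl-xL, with 95.2 ± 49.9 TPM and 2.51%. These neighbours in the order lay within their spread of each other, and both lay far below Bcl2l10. Bcl2l11 reached 41.1 ± 14.6 TPM, Bax 38.1 ± 24.2 TPM and Bid 13.1 ± 12.6 TPM, while Bad, Bok, Bcl2 and Bak1 had means of 4.29, 2.90, 1.20 and 0.150 TPM. Bak1 had no count in 48 of the 55 embryos, Bok had none in 36 and Bad had none in 20, whereas Bcl2l10, Mcl1, Bcl2l1 and Bcl2l11 were counted in all 55. A level under 3 counts corresponds to between 1.43 and 8.32 CPM in a blastomere, so these low members were not resolved at this depth.

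In intact blastocysts an effector had the highest level. Bax (chr7:45461697-45466898) was at 300 ± 94.7 TPM (n = 31) and 38.7% of the sum, followed by Mcl1 with 210 ± 48.2 TPM and 27.1%. Bok (chr1:93685660-93695764) had 121.03 ± 85.4 TPM, Bad (chr19:6941861-6951899) 66.3 ± 40.3 TPM and Bcl2l1 54.96 ± 33.2 TPM, and these 3 levels overlapped. Bak1, Bcl2l11, Bid, Bcl2 and Bcl2l10 followed with 10.1, 5.49, 4.40, 3.21 and 0.427 TPM. Summed by role, the antiapoptotic members came to 3697 ± 430 TPM in 2-cell embryos, 269 ± 64.6 TPM in intact blastocysts and 239 ± 28.7 TPM in twins. Without Bcl2l10, however, the same sum was 218 ± 71.7, 268 ± 64.6 and 239 ± 28.7 TPM, values that overlapped. Effectors summed to 41.1 ± 24.2, 431 ± 140 and 688 ± 106.7 TPM, and the 3 BH3-only members to 58.5 ± 21.1, 76.2 ± 41.97 and 160 ± 30.4 TPM. These sums are a description and were not tested.

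**Figure D1:**
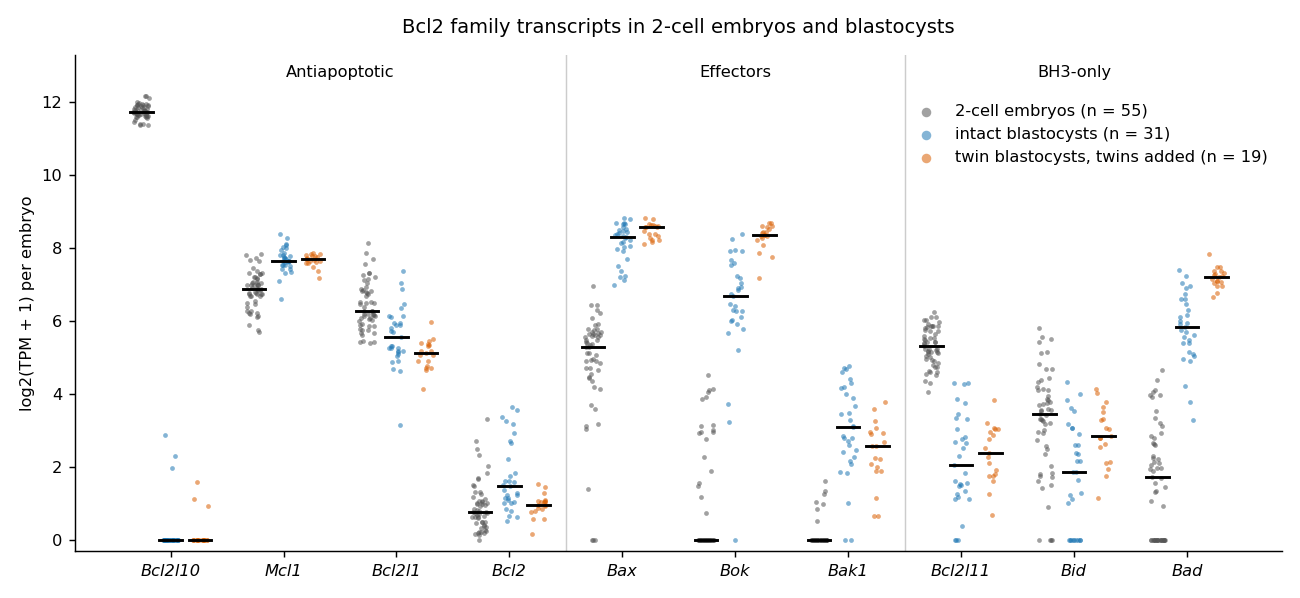
Level of each member per embryo as log2(TPM + 1), by role, in 2-cell embryos, intact blastocysts and twin blastocysts with both twins added; each point is 1 embryo and each black line is a median. Bcl2l10 stands far above every other member in 2-cell embryos and at or near 0 in blastocysts, where Bax, Bok and Bad are higher than in 2-cell embryos.

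Between the stages, the largest ratio of levels among the members was that of Bcl2l10. It had 1298 to 5242 counts in each 2-cell embryo, whereas the 31 intact blastocysts held 3 counts of it among 22125255 and the 38 twins 4 counts among 43636294. Its pooled level in 2-cell embryos was 1289 CPM, which is 9506 times that of intact blastocysts (95% exact Poisson interval of the ratio 3253 to 46095, from the blastocysts' counts) and 14061 times that of twins (5492 to 51606). These intervals cover counting error only, since the reads carry no molecular identifiers. In total, 9 members passed the filter on low counts and all 9 were called by edgeR (quasi-likelihood test, Benjamini-Hochberg adjusted p under 0.05, with site and plate as terms), beside 77.1% of the 12645 genes tested. Of these, 5 were higher and 4 lower in blastocysts, against 31.2% and 45.9% of all genes, whose median log2 fold change was -0.41. A member that is counted in 1 stage only passes such a filter through that stage, and so this count is no evidence about the family.

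Among the survival genes, Mcl1 ranged from 55.8 to 227 CPM in 2-cell embryos (median 123) and from 115.3 to 403 CPM in intact blastocysts (median 242), so the ranges overlapped although 30 of 31 blastocysts lay above the 2-cell median. Its log2 fold change was 0.69 (SE 0.15, adjusted p = 4.61e-05). Bcl2l1 went the other way, from 57.6 to 348 CPM (median 108.3) to between 13.9 and 265 CPM (median 72.3), a log2 change of -1.04 (SE 0.21, adjusted p = 6.46e-06). Fold changes between the stages come from fits with TMM factors, site and plate, which CPM do not include. They need not match the CPM beside them. All blastocysts were of plate 2, so the plate term rests on the 2-cell embryos. Bcl2 (chr1:106538178-106714274), the founding member, stayed low in both stages, with medians of 1.97 and 5.67 CPM, and its change was 1.52, in a gene that did not pass the filter among 2-cell embryos alone (SE 0.57, adjusted p = 0.0121).

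Of the effectors, Bax rose. It had at most 62.4 CPM in 2-cell embryos (median 19.03) and at least 66.1 CPM in intact blastocysts (median 170, highest 245), so the ranges did not overlap, and its log2 fold change was 2.61 (SE 0.38, adjusted p = 1.73e-09). Bok, which can permeabilise mitochondria without Bax and Bak1, had a median of 0 and at most 11.5 CPM in 2-cell embryos against a median of 65.4 and at most 217 CPM in intact blastocysts. In 28 of 31 blastocysts it exceeded every 2-cell embryo. Bok did not pass the filter on low counts among the 55 two-cell embryos alone, and with most 2-cell embryos at 0 no fold is given. Bak1 (chr17:27019810-27029009) did not pass the filter on low counts. It had at most 1.49 CPM in 2-cell embryos and a median of 5.98 CPM in blastocysts, where 29 of 31 had a count.

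The BH3-only genes did not move together. Bad, a sensitiser controlled by phosphorylation, had a median of 1.87 CPM in 2-cell embryos (at most 18.9) and of 52.96 CPM in intact blastocysts (7.70 to 144), with 28 of 31 blastocysts above every 2-cell embryo and a log2 fold change of 4.45 (SE 0.77, adjusted p = 2.06e-07). Bcl2l11 (chr2:128126038-128162547), an activator that binds all antiapoptotic members, had between 39.8 and 177 CPM (median 94.1) at the 2-cell stage and between 0 and 56.6 CPM (median 8.42) in blastocysts, and fell by 2.82 on the log2 scale (SE 0.31, adjusted p = 5.96e-14). Bid (chr6:120891930-120916853), which links death receptors to mitochondria after cleavage by caspase 8, fell by 1.57 (SE 0.54, adjusted p = 0.00633), from a median of 10.6 to 3.505 CPM with overlapping ranges. With twins in place of intact blastocysts, Bid's change of -0.49 was not called (adjusted p = 0.387). Exons of Bid share 628 bases with Bcl2l13 on the other strand, and those of Bad share 524 bases with Gpr137, and counting was unstranded. Bcl2l13 also fell, by 0.71 (SE 0.19, adjusted p = 0.000647), whereas Gpr137 had a log2 change of -0.68 (adjusted p = 0.156), opposite in sign to that of Bad. Reads of these gene pairs cannot be told apart where they overlap. In a bulk blastocyst, fewer cells of a type and less RNA per cell cannot be told apart either.

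Promoter windows are shown for the 3 members called between twin and intact blastocysts (Bok, Bad and Bcl2l1). Bax, the highest member by mean TPM in intact blastocysts, is shown as well. The 250 bases before the gene's start were read from RefSeq (GRCm38.p6), as the letters in which promoter motifs would be looked for. In all, 9 of the 10 members matched a window, 13 windows in total, and Bcl2l10 matched none. The letters searched, on both strands, were the GC box GGGCGG, the CCAAT box, the TATA box TATAAA and the E-box CACGTG, and capitals mark each match. Matches of different motifs can share end letters, and none did in the windows shown. The window of Bok, the first of 2 of Bad and that of Bax, all genes higher in blastocysts, and the most upstream of 3 windows of Bcl2l1, a gene that was lower, are shown in their gene's direction. They lie at chr1:93685325-93685574 (plus strand), chr19:6941611-6941860 (plus), chr7:45466899-45467148 (minus) and chr2:152831729-152831978 (minus).
Bok: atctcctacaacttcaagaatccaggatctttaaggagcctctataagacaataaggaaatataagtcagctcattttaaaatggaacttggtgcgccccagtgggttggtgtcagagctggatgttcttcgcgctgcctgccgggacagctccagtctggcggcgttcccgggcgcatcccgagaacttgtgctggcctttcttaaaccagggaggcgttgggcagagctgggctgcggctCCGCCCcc
Bad: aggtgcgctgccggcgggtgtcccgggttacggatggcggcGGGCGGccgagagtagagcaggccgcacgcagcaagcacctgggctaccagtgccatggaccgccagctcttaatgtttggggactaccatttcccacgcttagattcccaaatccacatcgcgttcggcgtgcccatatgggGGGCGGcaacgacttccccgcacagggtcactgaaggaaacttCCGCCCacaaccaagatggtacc
Bax: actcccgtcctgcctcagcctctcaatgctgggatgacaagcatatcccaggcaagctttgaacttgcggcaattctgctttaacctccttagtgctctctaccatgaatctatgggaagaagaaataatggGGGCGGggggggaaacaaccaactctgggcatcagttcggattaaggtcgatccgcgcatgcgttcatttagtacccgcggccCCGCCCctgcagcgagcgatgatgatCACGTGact
Bcl2l1: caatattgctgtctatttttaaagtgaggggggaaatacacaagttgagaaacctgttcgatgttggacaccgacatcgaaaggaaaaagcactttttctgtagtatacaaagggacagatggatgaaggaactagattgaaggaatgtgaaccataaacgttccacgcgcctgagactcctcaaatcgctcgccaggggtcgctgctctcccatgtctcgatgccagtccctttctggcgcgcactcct
The Bok window held 1 GC box, that of Bad 3 and that of Bax 2 with 1 E-box, while the Bcl2l1 window held none of the 4 motifs. The number of GC boxes did not follow the direction of change in the other windows, since Bcl2l11 and Bid, both lower in blastocysts, held 3 and 2 (Bcl2l11, with 1 and 2 CCAAT boxes) and 3 (Bid), whereas Mcl1 held 1, Bcl2 7 and Bak1 none. The second window of Bad held no GC box and 1 CCAAT box, and the other windows of Bcl2l1 held none of the 4 motifs. Of all 32851 windows of the same length, 32.7% held a GC box, 33.8% a CCAAT box, 12.4% a TATA box and 6.02% an E-box. A match is a description of these letters only.

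With respect to the ICSI site, the contrast in 2-cell embryos lay in Bcl2l1 and, to a smaller extent, in Bcl2l10. After equatorial ICSI, Bcl2l1 ranged from 128.2 to 348 CPM with a median of 187 (200 ± 60.7, n = 13). After contralateral ICSI it ranged from 57.6 to 291 CPM with a median of 99.6 (114.03 ± 55.2, n = 21), and after ipsilateral ICSI from 58.7 to 162 CPM with a median of 102.1 (103 ± 28.1, n = 21). The ranges overlapped, yet 15 of 21 contralateral and 18 of 21 ipsilateral embryos lay below every equatorial one. The log2 fold change was -0.84 (SE 0.17, adjusted p = 0.00035) for contralateral and -1.04 (SE 0.17, adjusted p = 0.000176) for ipsilateral against equatorial ICSI, by edgeR with plate as a term. Both comparisons share the 13 equatorial embryos. Between contralateral and ipsilateral ICSI, Bcl2l1 differed by 0.20 (SE 0.15), not called, as was no gene of the 13141 tested by edgeR or DESeq2, although 555 and 683 genes had an unadjusted p under 0.05.

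Depth moved with this difference. The equatorial embryos had a median of 11392 detected genes, against 12072 after contralateral and 12103 after ipsilateral ICSI, and median totals of 2179479, 2675357 and 3050508 counts. Across the 55 embryos, the level of Bcl2l1 and the number of detected genes had a Pearson r of -0.463 (Spearman rho -0.387), and within the groups r was -0.365, -0.426 and -0.149 for contralateral, equatorial and ipsilateral ICSI. The equatorial r was 0.0505 without the 2 embryos farthest from the median number of genes. With the log2 total in place of the number of genes, r was -0.408 over all embryos and -0.127, -0.635 and -0.149 within the groups, and the equatorial r was -0.378 without the 2 farthest embryos. With the total and the number of detected genes as covariates, the log2 fold changes of Bcl2l1 were -0.66 (adjusted p = 0.00677) and -0.72 (adjusted p = 0.051), so the ipsilateral call was lost. On plate 1 alone the values were -0.92 and -1.10, both called, and the ipsilateral and equatorial ranges did not overlap. On plate 2 alone, a split added after the data were seen, with 3 contralateral, 2 equatorial and 8 ipsilateral embryos, they were -0.15 and -0.54 and neither was called.

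Bcl2l10 was higher after contralateral ICSI, where it ranged from 1085 to 1844 CPM with a median of 1348 (1371 ± 182, n = 21), than after equatorial ICSI, where it ranged from 917 to 1767 CPM with a median of 1130 (1159 ± 232, n = 13). The ranges overlapped and 19 of 21 contralateral embryos lay above the equatorial median. The log2 fold change was 0.25 (SE 0.08, adjusted p = 0.024, edgeR). After ipsilateral ICSI the level was 1299 ± 191 CPM (n = 21), and the log2 fold change of 0.13 against equatorial ICSI (SE 0.08, adjusted p = 0.395) was not called. The contralateral call was lost without equatorial embryo 43 (adjusted p = 0.0517), in the rank-sum test on added TPM (adjusted p = 0.101), and in the 48 pairs with at most 2% mitochondrial counts (0.21, adjusted p = 0.0928). On plate 2 alone the value was -0.16.

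The other tested members did not pass the threshold for the ICSI site. Mcl1 had a log2 fold change of -0.30 (SE 0.16) for contralateral and -0.26 (SE 0.17) for ipsilateral against equatorial ICSI, and Bcl2l11 had 0.26 (SE 0.18) and 0.21 (SE 0.18). For Bax the values were -0.07 (SE 0.45) and -0.38 (SE 0.45), for Bid -1.04 (SE 0.54) and -0.39 (SE 0.54), and for Bad -0.39 (SE 0.93) and -0.08 (SE 0.86). The standard errors of Bax, Bid and Bad were wider than those of the abundant members. In sum, 2 of 7 tested members were called for contralateral and 1 of 7 for ipsilateral against equatorial ICSI, beside 13.2% and 6.65% of all genes. The members' median log2 fold changes were -0.30 and -0.26, and those of all genes were -0.00 and 0.01. These members' medians moved with the setting. On plate 1 alone, with 8 members tested, they were -0.08 and 0.03, and on plate 2 alone -0.22 and -0.37. Without the plate term they were -0.12 and -0.28.

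**Figure D2:**
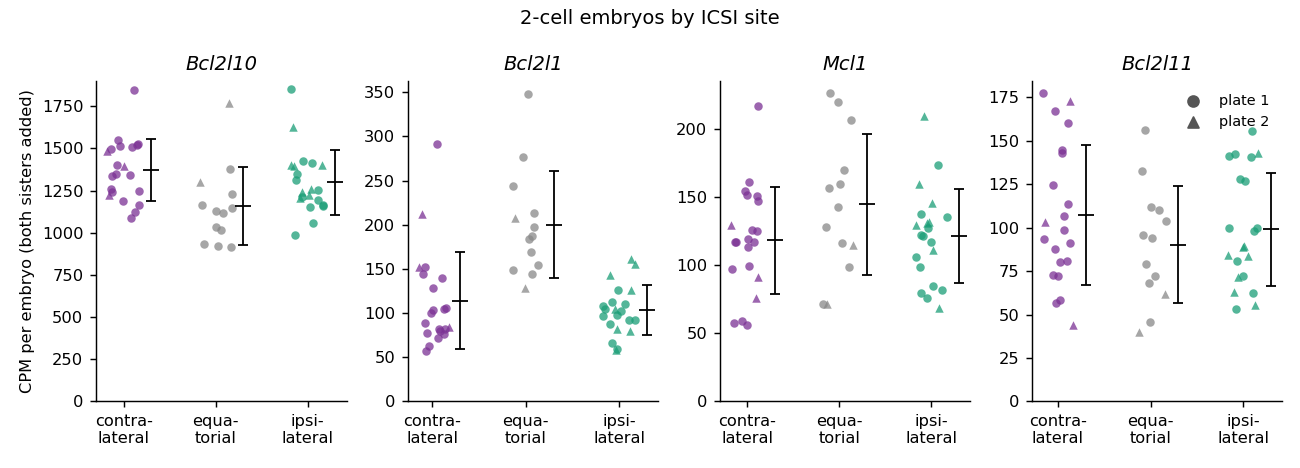
CPM per 2-cell embryo, with both sisters added, for the 4 members counted in every embryo, by ICSI site; circles are plate 1, triangles plate 2, and bars give the mean ± SD of 21 contralateral, 13 equatorial and 21 ipsilateral embryos. Most contralateral and ipsilateral embryos lie below the equatorial range of Bcl2l1, and the groups overlap for the other members.

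Other genes of the apoptosis pathway were read from lists of related factors. For contralateral against equatorial ICSI, 7 of 39 tested genes, of 50 on 7 lists, were higher and 0 lower, beside 7.12% and 6.06% of all genes. They were Ywhaz (0.41, SE 0.08, adjusted p = 0.000193), a 14-3-3 protein that sequesters phosphorylated Bad, the mitochondrial channel genes Vdac3 (0.65, SE 0.13) and Vdac2 (0.86, SE 0.18), of which Vdac2 restrains Bak1, the caspase inhibitor genes Birc3 (0.55) and Birc5 (0.25), the cytochrome c gene Cycs (0.45) and Bnip3l (0.34). For ipsilateral against equatorial ICSI, 4 were higher and 0 lower, beside 3.43% and 3.22%: Ywhaz (0.32, SE 0.08), Vdac3 (0.51, SE 0.13), Vdac2 (0.69, SE 0.18) and Htra2 (1.08, SE 0.34, adjusted p = 0.0412), a mitochondrial protease. No gene of the death receptor list or of the list of enzymes that set Mcl1 stability was called in either comparison. These lists were read from the fit with plate as a term only, so the part of depth in their calls was not tested. Over all genes, fits with depth covariates gave 1193 calls against 1733 for contralateral, and 61 against 874 for ipsilateral against equatorial ICSI.

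Among the members counted in every blastomere, sisters were most alike in Bcl2l10, which also had the most counts. Its absolute difference between sisters had a median of 0.15 on the scale of log2(CPM + 1), no pair of 55 differed by more than 2-fold, and the intraclass correlation of sisters was 0.578. For Bcl2l1 the median difference was 0.54, with 8 pairs over 2-fold and an intraclass correlation of 0.507 over all sites. Within contralateral, equatorial and ipsilateral pairs that correlation was 0.321, 0.253 and 0.249, against 0.458, 0.516 and 0.626 for Bcl2l10. For Mcl1 the median difference was 0.44, with 7 pairs over 2-fold and an intraclass correlation of 0.285 over all sites. The median difference was 0.62 for Bcl2l11, 0.94 for Bcl2, 1.08 for Bax, 1.39 for Bid and 1.54 for Bad, and 0 for Bok and Bak1, which had no count in most blastomeres. Median counts per blastomere were 1762 for Bcl2l10, 152 for Bcl2l1, 150 for Mcl1 and 135 for Bcl2l11. They were 20 for Bax, 9 for Bid, 2 for Bcl2 and 0 for Bad. The part of counting error in the order of these differences was not tested. In 11 pairs Bax was counted in 1 sister only, and so were Bid in 16, Bok in 18 and Bad in 25 pairs. Bcl2l11 exceeded 2-fold in 12 pairs, and its intraclass correlation was -0.01 over all pairs, with 0.323 after contralateral, 0.184 after equatorial and -0.193 after ipsilateral ICSI.

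The size of the sister difference did not depend detectably on the ICSI site. For Bcl2l10 its median was 0.09 after contralateral, 0.25 after equatorial and 0.15 after ipsilateral ICSI, and for Bcl2l1 it was 0.74, 0.50 and 0.39. By limma's F test over the sites, 0 of 6 tested members were called and 0 had an unadjusted p under 0.05, beside 0.239% of 11712 genes called. The smallest p among them was that of Mcl1 (adjusted p = 0.749). The paper states that which blastomere of a pair is first cannot be known beforehand. By the well names, however, sister a sat in the well before sister b, and an effect of the well was not tested. No gene was called between a and b by edgeR with the embryo as a block (0% of 9810, with 464 at an unadjusted p under 0.05). Bcl2l1 was higher in sister a in 40 of 55 pairs, with a log2 fold change of -0.36 for b against a (SE 0.09, unadjusted p = 8.76e-05, adjusted p = 0.43). By site, a was higher in 19 of 21 contralateral, 8 of 13 equatorial and 13 of 21 ipsilateral pairs, a difference between sites that was not tested.

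**Figure D3:**
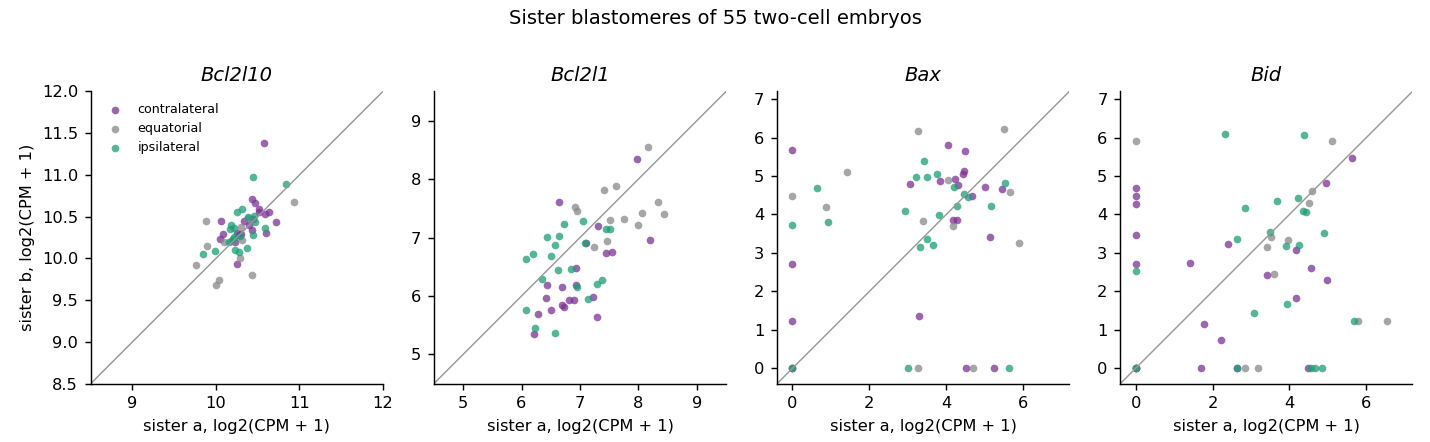
Level in sister b against sister a as log2(CPM + 1) for 4 members in 55 two-cell embryos, coloured by ICSI site; each point is 1 embryo and the grey line marks equal levels. Bcl2l10 pairs lie close to the line, Bcl2l1 has 40 of 55 points below it, and Bax and Bid scatter widely with points on the axes where only 1 sister had counts.

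Twin blastocysts had more Bok and Bad and less Bcl2l1 than intact blastocysts. Bok ranged from 91.8 to 265 CPM in twins with a median of 219 (208 ± 43.7, n = 19), and from 0 to 217 CPM in intact blastocysts with a median of 65.4 (77.2 ± 55.3, n = 31). Every twin pair lay above the intact median, 10 lay above every intact blastocyst, and the log2 fold change was 1.39 (SE 0.25, adjusted p = 1.04e-05, edgeR with site as a term). Bad ranged from 89.8 to 200 CPM in twins with a median of 130 (132 ± 24.6) and from 7.70 to 144 CPM in intact blastocysts with a median of 52.96 (58.5 ± 34.6). All 19 twin pairs were again above the intact median, and the log2 fold change was 1.11 (SE 0.19, adjusted p = 2.98e-06). Gpr137, which overlaps Bad, had a change of 0.30 (adjusted p = 0.502).

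Bcl2l1 ranged from 28.2 to 97.9 CPM in twins with a median of 53.8 (54.99 ± 15.4) and from 13.9 to 265 CPM in intact blastocysts with a median of 72.3 (87.5 ± 54.3). The twins lay inside the intact range, 18 of 19 below the intact median, and the log2 fold change was -0.78 (SE 0.21, adjusted p = 0.00254). The remaining tested members had changes of -0.12 for Mcl1 (SE 0.09), 0.17 for Bax (SE 0.12) and -0.18 for Bcl2l11 (SE 0.40), none called. Altogether 3 of 6 tested members were called, 2 higher and 1 lower, beside 42.3% of the 9379 genes tested, so this share was near that of all genes. The members' median was 0.03 and that of all genes -0.01.

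Bcl2, Bak1, Bid and Bcl2l10 did not pass the filter on low counts here. Bcl2 had a median of 3.06 CPM in twins (0.417 to 6.14) and of 5.67 CPM in intact blastocysts (1.40 to 36.9). Without the filter its log2 fold change was -1.47 (SE 0.47, adjusted p = 0.0121, edgeR). That value rests on 1 to 13 counts per intact blastocyst and per twin pair. Bak1 had medians of 4.05 and 5.98 CPM and Bid of 7.71 and 3.505 CPM, and neither was called without the filter. Bcl2l10 was counted in 3 of 31 intact and 3 of 38 twin libraries.

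Within each ICSI site the means differed in the same direction for Bok, Bad and Bcl2l1. Bok had means of 168 ± 48.7 CPM in contralateral twins (n = 6) against 79.4 ± 45.5 in contralateral intact blastocysts (n = 11), of 226 ± 23.4 (n = 6) against 92.4 ± 73.5 (n = 12) after equatorial ICSI, and of 228 ± 29.97 (n = 7) against 51.6 ± 22.8 (n = 8) after ipsilateral ICSI. With both twins added, only after ipsilateral ICSI did twin and intact ranges not overlap for Bok. The same held for Bad, with 120.5 ± 20.99 against 47.1 ± 16.8 CPM. Among single ipsilateral twins, however, Bad went down to 65.6 CPM, below the highest ipsilateral intact blastocyst, so ranges of single blastocysts overlapped. Bok was at 155 CPM or more in single ipsilateral twins, above every ipsilateral intact blastocyst. The share of all genes without overlap was not computed. Whether the twin effect differed between sites was not tested. Bcl2l1 means were 56.8 ± 25.4 against 78.1 ± 39.8 CPM, 51.7 ± 6.42 against 96.8 ± 76.9 CPM, and 56.3 ± 11.2 against 86.6 ± 28.4 CPM.

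**Figure D4:**
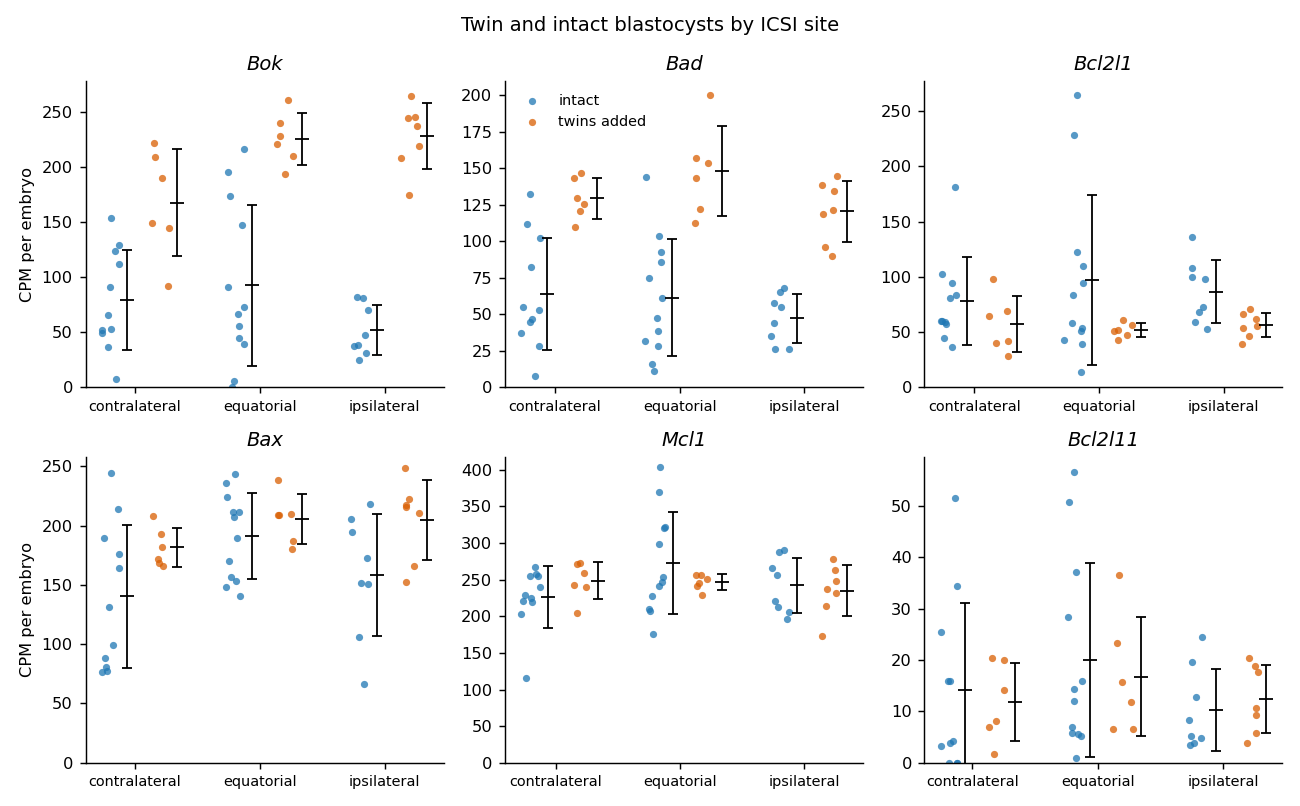
CPM per embryo of the 6 members tested between twin and intact blastocysts, by ICSI site. Blue points are intact blastocysts, orange points are twin pairs with both twins added, and bars give the mean ± SD. The axes start at 0, which cuts any bar that reaches below it. Twins lie above most intact blastocysts for Bok and Bad at each site and in the lower part of the intact range for Bcl2l1.

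Markers of the blastocyst lineages moved between twin and intact blastocysts as well. Of 7 epiblast markers, 5 were higher and 0 lower in twins, with summed levels of 168 to 504 CPM (median 341) against 2.61 to 426 CPM (median 162). Of 9 trophectoderm markers, 1 was higher and 6 were lower, with sums of 3867 to 5030 CPM (median 4494) against 4346 to 7690 CPM (median 4980). Of 7 primitive endoderm markers, 1 was higher and 3 were lower, with sums of 353 to 935 CPM (median 660) against 150 to 1309 CPM (median 952). The oocyte list summed to between 330 and 683 CPM in twins and between 0 and 403 CPM in intact blastocysts, and this sum was almost entirely Dppa3, with medians of 546 CPM in twins and 45.7 CPM in intact blastocysts, whereas Mos was at 0 in all twins and Oosp1 in all intact ones, and the cumulus list to at most 1.16 and 4.57 CPM. Depth differed as well, with a median of 1093478 counts per single twin library, of which 2 were added per pair, against 705837 per intact blastocyst. With all embryos thinned to 234099 counts, 3 of 5 tested members were still called, and the log2 fold changes were 1.34 for Bok, 1.10 for Bad and -0.63 for Bcl2l1. The part of the lineage markers in these differences was not tested.

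Other apoptosis genes differed between twin and intact blastocysts in both directions, with 6 higher and 7 lower of 39 tested on the 7 lists, beside 20.4% and 21.9% of all genes. The BH3-only genes Hrk (-3.44, SE 0.50, adjusted p = 7.9e-08) and Bbc3 (-2.09, SE 0.37, adjusted p = 3.87e-06), the latter encoding the p53 target Puma, were lower in twins, as were the death receptor genes Tnfrsf10b (-1.70, SE 0.29) and Tnfrsf1a (-1.63, SE 0.37), the caspase inhibitor gene Birc3 (-1.05, SE 0.34), Cycs (-0.33) and Ywhaz (-0.29). Birc5, which encodes survivin, was higher (1.05, SE 0.14, adjusted p = 9.8e-09), together with Vdac1 (0.52, SE 0.08, adjusted p = 4.32e-07), Htra2 (1.53, SE 0.40), the nuclease gene Endog (1.40, SE 0.37), Casp6 (0.59) and Bnip3l (0.42).

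Among blastocysts of one kind, no member was called between ICSI sites. These fits used a shared estimate of spread per gene for twins and intact blastocysts, with 6 or 7 twin pairs per site. Smaller differences among twins could therefore be missed, and the lack of a call does not show equal levels. In the 3 comparisons of twins, 0 of 9 tested members were called by edgeR, and 0 by DESeq2, beside 0% of the 10689 genes. At an unadjusted p under 0.05 edgeR gave 41, 66 and 62 genes and 0 members. In intact blastocysts 0 of 9 were called in each comparison by edgeR and by DESeq2, beside 0.168%, 0% and 0.0187% of all genes (175, 23 and 59 genes by DESeq2). At an unadjusted p under 0.05 edgeR gave 1391, 855 and 1122 of the 10689 genes, and 1 of the 9 members each. So many genes passed this level that 1 member each does not set the family apart. The members were Bax for contralateral against equatorial ICSI (-0.42, SE 0.18, adjusted p = 0.291), Bok for ipsilateral against equatorial ICSI (-0.93, SE 0.40, adjusted p = 0.554) and Bcl2 for contralateral against ipsilateral ICSI (1.94, SE 0.66, adjusted p = 0.252). Bcl2 had 15.1 ± 11.3 CPM in contralateral (n = 11) and 4.03 ± 1.65 CPM in ipsilateral intact blastocysts (n = 8), and the ranges of 2.39 to 36.9 and 1.88 to 6.86 CPM overlapped.

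Between the 2 twins of a pair, Mcl1 and Bax differed least among the members with counts in every twin. The median absolute difference, again as log2(CPM + 1), was 0.10 for Mcl1 and 0.19 for Bax, with 0 of 19 pairs over 2-fold in either. It was 0.33 for Bad, 0.51 for Bok and 0.57 for Bcl2l1, with 2, 3 and 6 pairs over 2-fold. Bcl2l11 differed by more than 2-fold in 14 of 19 pairs and Bid in 10, at medians of 10 and 8 counts per twin. Median counts were 267 for Mcl1, 229 for Bax, 218 for Bok, 141 for Bad and 56 for Bcl2l1. The part of counting error in this order was not tested either.

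**Figure D5:**
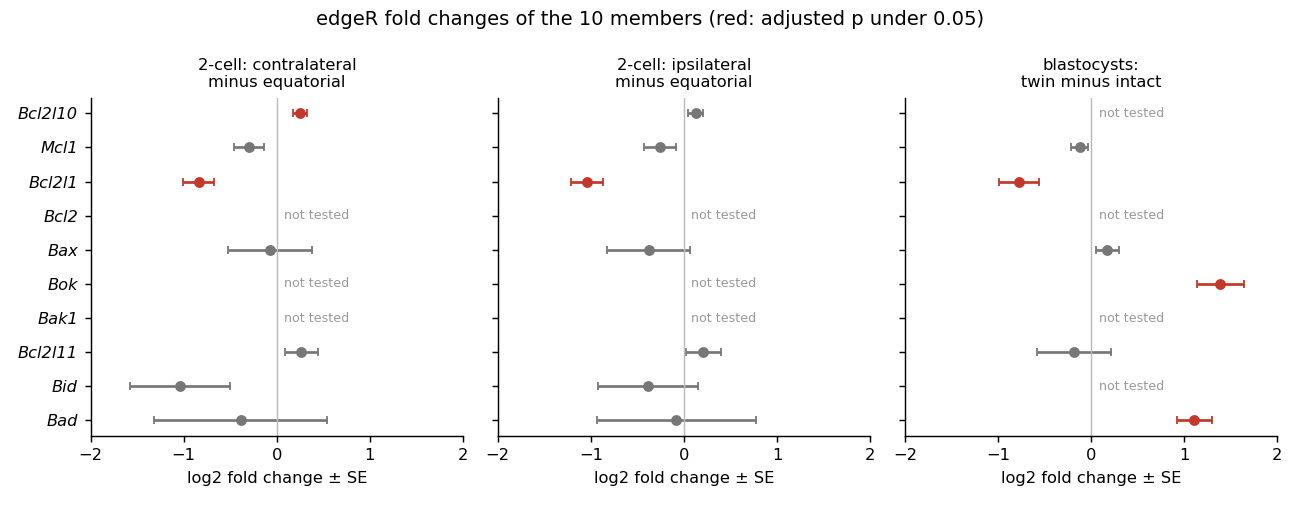
Log2 fold change of each member from edgeR, ± SE derived from its F statistic, in 2-cell embryos (contralateral and ipsilateral minus equatorial ICSI) and in blastocysts (twin minus intact). Red marks an adjusted p under 0.05 over all genes. Bcl2l1 lies below 0 in each panel, and Bok and Bad are above 0 in twins; members under the filter on low counts are marked as not tested.

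Between 2-cell embryos and intact blastocysts, other apoptosis genes were called in both directions. Of 43 tested on the 7 lists, 18 were higher and 13 lower, beside 31.2% and 45.9% of all genes. The smallest adjusted p-values were those of Bik (-7.62, SE 0.33, adjusted p = 3.16e-38), a BH3-only gene, Itpr1 (-5.37, SE 0.24, adjusted p = 1.36e-37), the calcium channel bound by Bcl2, and Usp9x (-2.59, SE 0.13, adjusted p = 9.36e-35), a deubiquitinase that stabilises Mcl1. Fbxw7, of the ubiquitin ligase that degrades Mcl1, was higher (0.77, SE 0.32), as were Vdac2 (1.31), Vdac3 (0.69), Ywhab (2.77), Tnfrsf1a (8.17), Tradd (5.14) and Tnfrsf10b (3.6005), while Ripk1 (-2.32) and Becn1 (-0.69) were lower. Of the 6 death receptor genes, 5 were tested here but only 3 among 2-cell embryos alone. A gene that passes the filter through the blastocysts has a fold that rests on a low 2-cell level. The counts of higher and lower genes are therefore no evidence about the pathway.

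The genes whose levels followed those of the leading members most closely were listed as a description. Across the 55 two-cell embryos, log2(CPM + 1) of Bcl2l10 had its highest Pearson r with E330034G19Rik (0.865), Mgst3 (0.852) and Cks1b (0.850), among 9256 genes with at least 10 CPM on average. With other members r was -0.250 for Mcl1, -0.288 for Bcl2l1, -0.185 for Bcl2l11, 0.351 for Bax and -0.219 for Bid. The leading member was the one with the highest mean CPM of its stage. In the 31 intact blastocysts this was Mcl1, which followed Uba1 (0.710), Gemin5 (0.707) and Rel (0.702) most closely, among 9164 genes. All points share the library preparation and differ in depth, and the part of depth in these values was not tested.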

How the data were processed

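Libraries were made from single blastomeres and single blastocysts with SMART-Seq reagents, without molecular identifiers. The authors trimmed reads (Trimmomatic 039), aligned them to GRCm38 with GENCODE M23 (STAR 2.7.10b, SmartSeq mode, unstranded) and deposited counts per gene. These counts equalled the matrix of collapsed reads in every entry, which could compress short abundant genes such as Bcl2l10 (1220 exonic bases), an effect that was not tested.

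Groups came from the labels. Pairs with at least 9500 detected genes in both sisters and blastocysts with at least 4000 were kept, that is 110 of 125 blastomeres and all 69 blastocysts in the tables, of 219 labelled samples. Counts of sisters or twins were added per embryo. CPM were computed from these counts, and TPM with GENCODE M21 lengths (32235 of 32285 genes).

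Tests were edgeR 4.0.16 quasi-likelihood fits (TMM factors, filterByExpr, robust) with plate, site, or both as terms, and limma 3.58.1 on absolute sister differences of log2(CPM + 1), with Benjamini-Hochberg adjustment over all genes and a threshold of 0.05. R was 4.3.3. The scripts were tested on simulated data. Alternatives were RLE factors, DESeq2 1.42.0, no filter, other sets of pairs, plates, covariates, thinned counts, a pseudocount of 5 CPM, a permutation rank-sum test on TPM (10123 genes, 100000 permutations) and leaving out each embryo. Plate 2 alone and the removal of totals under 500000 were added after the data were seen.

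The members and the lists of pathway and marker genes were chosen with earlier results of these data known. Named were all members, the 3 list genes of smallest adjusted p per comparison, every called gene of a list with at most 5, and the 3 genes most correlated with the member of highest mean CPM in each stage. Promoter windows came from RefSeq.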

Additional observations from a re-analysis of the deposited data

Results flagged for a closer look

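Of 40 groups of 4 to 10 embryos tested for a single value far from the rest (Dixon's test at the 95% level, which flags about 1 group in 20 by chance), 3 held one. Bcl2l10 was at 1.71 CPM in 1 of 8 ipsilateral intact blastocysts and at 0.386 CPM in 1 of 6 contralateral twin pairs, with 0 in all other embryos of those groups. Each rests on 1 count. Bid was at 15.9 CPM in 1 of 8 ipsilateral intact blastocysts, and the next value was 5.65 CPM.

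The 14 blastomeres of the 7 complete pairs that were left out, because a sister had fewer than 9500 detected genes, held single values above all 110 blastomeres used. The highest was 3128 CPM for Bcl2l10 (2670 CPM among those used), 316 CPM for Mcl1 (302 CPM), 240 CPM for Bcl2l11 (217 CPM) and 543 CPM for Bcl2l1 (373 CPM). For Bcl2l1, 3 of the 14 lay above the range used, against 1 for each of the other genes. In the 7 of them with fewer than 9500 detected genes, Bcl2l1 ranged from 236 to 543 CPM (median 353). Medians in these 7 were 1027 CPM for Bcl2l10, 171 CPM for Mcl1 and 143 CPM for Bcl2l11. A relation to depth was not tested in them.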

How the results depend on the processing

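Under the alternatives, 371 values of single members kept their side of the threshold, 8 were counted as losing it and 1 called value reversed. The lowest and the highest leave-one-out value of Bcl2l10 are both among the 8, although 54 of its 55 refits kept the call. Members that were not called could change sign within the 371. For contralateral against equatorial ICSI, Bad ranged from -0.59 to 0.26 when each embryo was left out. For contralateral against equatorial ICSI in 2-cell embryos, 2 members were called, against 1 in the 48 pairs with at most 2% mitochondrial counts, 1 in the rank-sum test, 0 on plate 2 alone and 1 to 2 when each embryo was left out. The member lost was Bcl2l10, with log2 fold changes of 0.21 (48 pairs, adjusted p = 0.0928), 0.13 (rank-sum test, adjusted p = 0.101) and, reversed, -0.16 (plate 2 alone, adjusted p = 0.901), and of 0.22 to 0.31 when each embryo was left out. For ipsilateral against equatorial ICSI, 1 member was called, against 0 with depth covariates (Bcl2l1 at -0.72) and 0 on plate 2 alone (-0.54), where Bcl2l1 was at -0.15 for contralateral ICSI. For the stages, 9 members were called, against 5 of 5 tested after thinning and 7 of 8 with twins. The causes were not tested. Fewer members were tested after thinning, and plate 2 held fewer embryos. Members called between twin and intact blastocysts stayed 3 under each alternative but the one without a filter, where they were 4 of 10 tested, and Bok, Bad and Bcl2l1 ranged over 1.31 to 1.52, 1.06 to 1.19 and -0.86 to -0.59.

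Over all genes, counts of calls moved by more than 1.5 times as follows. Without a filter they were 3930 against 1733 (contralateral against equatorial), 2603 against 874 (ipsilateral against equatorial), 1577 against 0 (contralateral against ipsilateral), 6385 against 3967 (twin against intact) and 15441 against 9744 (stages). Contralateral against equatorial ICSI gave 1104 in the 48 pairs, ipsilateral against equatorial gave 61 with depth covariates, and both gave 0 on plate 2 alone. Thinning gave 5751 between stages and 48 against 28 in the F test of sister differences. Contralateral against ipsilateral ICSI in intact blastocysts gave 1 against 2 without a filter. In intact blastocysts DESeq2 called 175, 23 and 59 genes against 18, 0 and 2. No paired analysis was possible because embryos of different ICSI sites share no replicate number; the embryo was the block between sisters a and b, and without it Bcl2l1 was at -0.30 (adjusted p = 1.00). Members under the floor of 3 counts per library could not be resolved.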
